A study of Mus musculus with 234 samples.

Results

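Desmin (Des), vimentin (Vim), synemin (Synm), the A-type lamin gene (Lmna) and plectin (Plec) were followed in single cardiomyocytes (CMs) from hearts of mice with and without a mutant human BAG3 transgene. These 5 genes were taken by name from a table of 55538 features, of which 23664 had a count in at least 1 cell. In a CM, desmin filaments run from Z-disc to Z-disc and out to the costameres, the intercalated discs and the nucleus, and so tie the contractile lattice to the rest of the cell. Synemin is a large intermediate filament protein that joins desmin polymers and links them to costameres, and plectin is a cytolinker that fastens desmin to Z-discs, costameres, mitochondria and the nuclear envelope. Lamins A and C build the lamina under the inner nuclear membrane, and vimentin is the intermediate filament protein of fibroblasts, endothelial cells and other mesenchymal cells, which mature CMs largely lack. BAG3 is a co-chaperone that helps to turn over damaged Z-disc proteins in working muscle.

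The cells came from 5 mice. Control mice M26 and M73 are labelled C57BL/6 and wt (wild type). The paper describes its transgenic mice as being on a mixed genetic background that includes C57BL/6, and its controls as their siblings. Whether strain differed between the groups used here cannot be told. Homozygous mice M25 and M116 (PGKcre:BAG3P209L_homo, hereafter homozygous CAG-BAG3P209L) and the single heterozygous mouse M72 (PGKcre:BAG3P209L_het) carried a human BAG3P209L-eGFP fusion behind the CAG promoter in 1 transgenic line, freed from a stop cassette by PGK-Cre, which is active in the germ line and not in CMs alone. The methods give an age of 2 weeks for the control and homozygous mice, and the age of M72 is not given. CMs were isolated by Langendorff perfusion and picked by hand, cells that gave little cDNA were not sequenced, and cells of transgenic mice were labelled bright or dim. There were 24 and 9 control cells from M26 and M73, 21 and 59 homozygous bright cells from M25 and M116, 18 and 50 homozygous dim cells from the same mice, and 27 bright and 26 dim cells from M72.

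Reads per gene were counted by the authors for each cell, and the counts were summed here over the cells of each mouse and label, which gave 8 sums of 4096609 to 40508124 counts. Levels are given as CPM, the count of a gene scaled to the total count of its sum, with exact Poisson intervals at the 95% level that cover counting error only. Single cells held 487 to 1392253 counts, with a median of 711527, and 15 of the 234 cells had under 1000 genes, 5 of them among the 33 control cells; all were kept in the sums. The labels put M25 and M26 into one library set and M73, M72 and M116 into the other. The transgene feature hBAG stood at 0.408 and 0.488 CPM in the controls, 10.7 and 99.6 CPM in the homozygous dim cells and 294 and 233 CPM in the homozygous bright cells of M25 and M116. In mouse M72 it went against the labels, with 105 CPM in the cells labelled bright and 251 CPM in the cells labelled dim. A set of 8 cardiomyocyte markers was detected in full in every sum, at 68021 to 88487 CPM, but 3 wells labelled homozygous bright, all from M25, held only 208, 1924 and 4629 CPM of them, against at least 39357 CPM in every other cell. The levels, log2 fold changes and within-mouse ratios of the members that rest on the sum of M25 bright cells are given with and without these 3 wells, a choice made after the data were seen.

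Desmin was by far the most abundant of the 5 transcripts. On the per-length scale, CPM per kilobase of exon with gene models from GENCODE M21, the medians over the 8 sums were 317 for Des, 15.8 for Lmna, 10.1 for Vim, 7.96 for Plec and 0.0427 for Synm. Des had a count in 230 of 234 cells (98.3%), Plec in 216 and Lmna in 210, whereas Vim had one in 77 cells (32.9%) and Synm in 17 (7.26%). In all, 193256 counts fell on Des, 24709 on Plec, 14559 on Lmna, 9562 on Vim and 161 on Synm. The gene models overlap little, and the strand setting of the counting is not stated. Des shares 5.86% of its exonic bases with the antisense gene Gm15179, which had 41 counts, Plec shares 1.13% with Parp10 on the same strand, which had 242 counts, and Synm shares 6.43% with Ttc23 and Gm45102 on the opposite strand, which had 1150 and 0 counts, so that reads from the shared bases cannot be assigned with certainty.

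**Figure D1:**
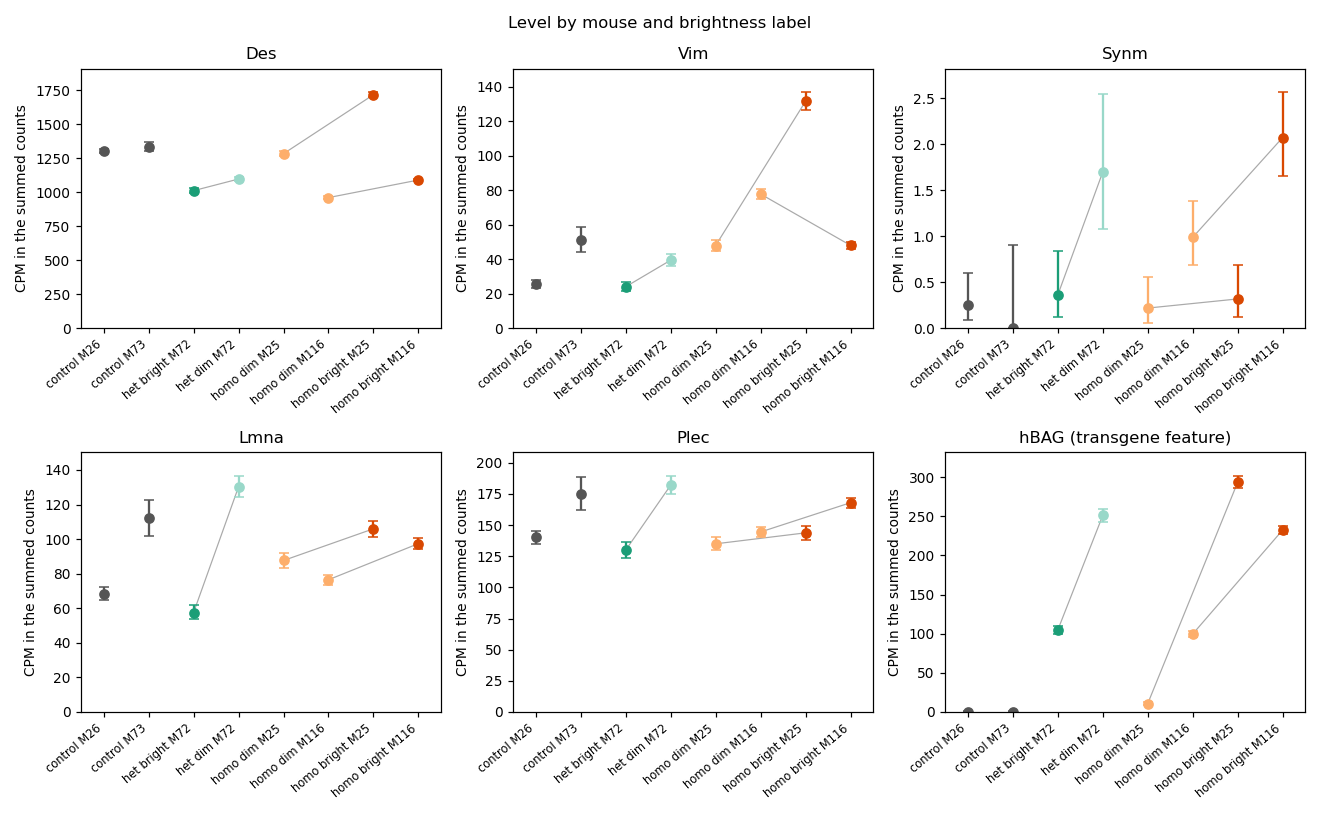
Level of Des, Vim, Synm, Lmna, Plec and the transgene feature hBAG in the 8 sums, in CPM on linear axes from 0, by mouse and label; bars are 95% Poisson intervals and grey lines join the bright and dim cells of 1 mouse. Des lies between 961 and 1719 CPM in every sum, Synm stays at or below 2.07 CPM, and hBAG is higher in the dim than in the bright label of M72.

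Des, which encodes the main intermediate filament protein of muscle, stood at 1303 CPM in control mouse M26 and 1336 CPM in M73. Homozygous bright cells had 1719 CPM in M25 and 1090 CPM in M116, and homozygous dim cells had 1284 and 961 CPM. The heterozygous cells of M72 had 1012 CPM when labelled bright and 1098 CPM when labelled dim. Both control values therefore lay between the bright values of the homozygous mice and above all 4 of the dim and heterozygous values. In order of the group means, homozygous bright (1404 ± 444 CPM, SD, n = 2) was followed by control (1320 ± 23.6, SD, n = 2), homozygous dim (1122 ± 229, SD, n = 2), heterozygous dim and heterozygous bright, and the ranges of neighbours in this order overlapped except for control against homozygous dim and for the pair of single heterozygous values. Without the 3 wells that lacked CM markers the M25 bright value was 1849 CPM.

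The homozygous bright cells were first compared with the control cells, which asks what a high transgene level goes along with. In edgeR's quasi-likelihood test on the sums, with 2 mice against 2, the Des log2 fold change was -0.23 (standard error 0.33, 95% interval -1.03 to 0.57, Benjamini-Hochberg adjusted p = 0.959). In homozygous dim cells against controls it was -0.52 (standard error 0.31, interval -1.27 to 0.23, unadjusted p = 0.141, adjusted p = 0.972 in edgeR). Des did not pass the threshold in either comparison, and the intervals reach from a lower to a higher level in both. The sign of the bright comparison rests on scaling and on mice: scaled by library size in place of TMM, which takes most genes as unchanged, the log2 fold change was 0.09, and within the library set that holds M25 and M26 it was 0.21 but -0.75 in the set that holds M116 and M73. M25 and M26 lay on the same plate, whereas M116 and M73 lay on different plates of their set. Without the 3 wells that lacked CM markers the bright log2 fold change was -0.15.

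In the homozygous hearts the median Des level of single CMs differed more between mice than between labels. Among wells with at least 1000 genes and CM markers, the median was 1337 CPM in the 28 control wells, 1036 and 1034 CPM in the 24 bright and 25 dim wells of M72, 999 CPM in the 66 homozygous dim wells and 1052 CPM in the 74 homozygous bright wells. The control quartiles, 1037 and 1653 CPM, overlapped those of homozygous bright wells, 816 and 1405 CPM. By mouse, the Des median over wells with at least 1000 genes was 1303 and 1432 CPM in the controls M26 and M73, 1464 CPM in the bright and 1367 CPM in the dim wells of M25, and 948 CPM in the bright and 936 CPM in the dim wells of M116. The homozygous mice thus differed from each other in both labels by more than bright and dim wells differed within either.

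In the homozygous bright sums a few wells stood far above the others in desmin. Above a line of 4000 CPM, set after the values were seen, lay 3 of 76 homozygous bright wells with at least 1000 genes (3.95%, exact Clopper-Pearson interval 0.822 to 11.1%). Their Des values were 7096 CPM in a cell of M25 and 5112 and 4209 CPM in cells of M116, and the next well, also homozygous bright, stood at 2536 CPM. No well reached the line among 66 homozygous dim wells, which allows a share of up to 4.55%, among 49 heterozygous wells (up to 6.12%) or among 28 control wells (up to 10.7%). These limits take a share of 0 to allow 3 of its total. The exact Clopper-Pearson upper limits were 5.44%, 7.25% and 12.3%. The wells are pooled over 2 mice, or 1 for the heterozygous wells, and are not replicates of a label, so these shares describe the wells and were not compared between labels. A control well with 962 counts and under 1000 genes read 4158 CPM.

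The same 3 wells were also high in other genes. Ankrd1, which encodes a stretch- and stress-responsive protein of the sarcomere, stood at 7676, 7594 and 7670 CPM in them, against a median of 725 CPM in homozygous bright wells and 117 CPM in control wells. The natriuretic peptide gene Nppa had 3066, 2553 and 1794 CPM, and Cryab, the small heat shock protein that chaperones desmin, had 2465, 2162 and 1900 CPM, against medians of 940 CPM in homozygous bright and 1343 CPM in control wells. The keratin gene Krt18 had 96.2, 165 and 711 CPM, while the median in homozygous bright wells was 0. Other wells reached such levels of some of these genes, up to 3339 CPM of Nppa in a homozygous bright well and up to 2451 CPM of Nppa, 2024 CPM of Cryab and 200 CPM of Krt18 among homozygous dim wells, and Ankrd1 reached 5631 CPM in a dim well of M72. Among control wells Cryab reached 2323 CPM and Krt18 104 CPM. The well of M25 also had 10717 genes detected and 1787 CPM of fibroblast markers, and whether it held more than 1 cell was not tested. These wells supplied 20.7% of the Des counts of the M25 bright sum from 5.0% of its counts and 15.8% of those of the M116 bright sum from 3.73%, and the other wells of these sums stood at 1435 and 954 CPM of Des.

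**Figure D2:**
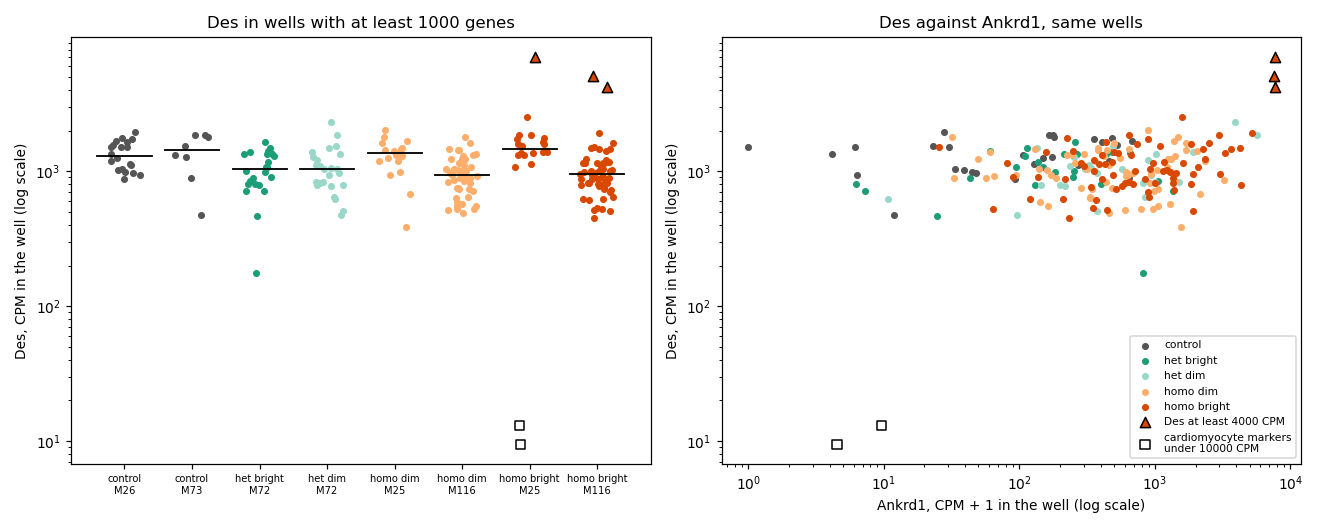
Left, Des level in each well with at least 1000 genes (CPM, log axis) by mouse and label, with horizontal lines at the medians; right, Des against Ankrd1 in the same wells. Triangles mark the 3 homozygous bright wells above 4000 CPM of Des, which are also high in Ankrd1, and open squares mark wells under 10000 CPM of CM markers.

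Synm, the linker of desmin filaments, was at the edge of detection. The controls held 5 counts in M26 (0.255 CPM) and 0 in M73, where a count of 0 allows up to 0.732 CPM. Homozygous bright cells held 6 counts in M25 (0.317 CPM, or 0.341 CPM without the wells that lacked CM markers) and 84 in M116 (2.07 CPM), homozygous dim cells 4 and 34 counts (0.218 and 0.987 CPM), and the cells of M72 5 counts under the bright label (0.361 CPM) and 23 under the dim label (1.70 CPM). The highest values were those of M116 bright and M72 dim cells, and the other values all lay at or below 0.987 CPM. With the filter on low counts used here Synm was tested between bright and dim cells but not against the controls. It entered either comparison with controls under 5 alternatives, such as no filter, and was called in none (lowest adjusted p 0.404 for bright and 0.581 for dim cells in edgeR). Of all Synm counts 60.2% lay in 3 wells. A pair of these were the Des-high wells of M116, with 51.7 and 36.0 CPM, and the third was a homozygous dim well of M116 with 49.6 CPM; in the other wells of M116 bright Synm stood at 0.487 CPM. Ttc23, which overlaps Synm on the opposite strand, had a count in 7 of the 17 wells with Synm (41.2%) and in 47 of the 217 wells without (21.7%), and its part in the Synm counts was not tested.

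Plec, the cytolinker, varied least among the sums. It stood at 140 and 175 CPM in the controls M26 and M73, at 144 and 168 CPM in homozygous bright cells of M25 and M116, at 135 and 144 CPM in homozygous dim cells, and at 130 and 182 CPM in cells of M72 labelled bright and dim. The homozygous values all lay within the range of the other sums. Against controls the log2 fold change in edgeR was -0.35 in bright cells (standard error 0.34, interval -1.17 to 0.46, adjusted p = 0.937) and -0.48 in dim cells (standard error 0.34, interval -1.30 to 0.34, adjusted p = 0.982). After TMM scaling both homozygous mice were below both controls in either comparison, for the bright cells by a narrow margin, 133 and 146 against 147 and 209 normalized CPM, and before it they overlapped. Without the wells that lacked CM markers the M25 bright level was 132 CPM and the bright log2 fold change -0.40. By well, the median was 122 CPM in control, 158 CPM in homozygous bright and 107 CPM in homozygous dim wells, and in M72 it was 96.3 CPM under the bright and 166 CPM under the dim label.

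Lmna, the source of lamins A and C, differed more between the control mice than between the control and homozygous means. It stood at 68.5 CPM in M26 and 112 CPM in M73. Homozygous bright cells had 106 and 97.4 CPM in M25 and M116, and homozygous dim cells 87.6 and 76.5 CPM, so that all 4 homozygous values lay between the controls. The lowest and the highest value both came from M72, with 57.5 CPM under the bright and 130 CPM under the dim label. Against controls the log2 fold change in edgeR was -0.17 in bright cells (standard error 0.42, interval -1.19 to 0.85, adjusted p = 0.979) and -0.44 in dim cells (standard error 0.43, interval -1.47 to 0.58, adjusted p = 0.999). The sign of the former turned to 0.18 under library size scaling. Lmna dominated the lamins in these cells: per kilobase of exon it ran from 9.85 to 22.3 CPM over the sums, whereas the B-type lamin genes Lmnb1 and Lmnb2 averaged 0.326 and 0.428 CPM per kilobase. A single well of M25 without CM markers had 586 CPM of Lmna and 19.4 CPM of fibroblast markers, and leaving out the 3 such wells moved the M25 bright value to 101 CPM and the bright log2 fold change to -0.20.

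Vim, the mesenchymal intermediate filament gene, was concentrated in wells that also held transcripts of other cell types. It stood at 25.6 and 51.0 CPM in controls M26 and M73, at 132 and 47.9 CPM in homozygous bright cells of M25 and M116, at 47.9 and 77.7 CPM in homozygous dim cells, and at 24.0 and 39.4 CPM in M72 bright and dim cells. The M25 bright value stood apart from all others. It rested on 1 of the 3 wells without CM markers, which had 2205 CPM of Vim, 50106 CPM of fibroblast markers and 867 CPM of hBAG, and without these wells it was 35.0 CPM. In edgeR the log2 fold change was 0.90 in bright cells (standard error 0.67, interval -0.73 to 2.53, adjusted p = 0.925) and 0.39 in dim cells against controls (standard error 0.55, interval -0.92 to 1.70, adjusted p = 0.999). Without the 3 wells the bright value turned to -0.23. Of the 4 members tested, Vim alone changed sign in the comparison of bright cells with controls when these wells were left out.

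The wells with and without other-cell transcripts were then compared, using fibroblast, endothelial, mural and immune markers with the smooth muscle actin gene Acta2 left out, since it supplied most of the mural marker counts of every sum. Of 219 wells with at least 1000 genes, 67 had 100 CPM or more of these markers, and Vim was counted in 57 of them (85.1%), against 19 of the other 152 (12.5%). The 67 wells held 97.6% of the Vim counts of these wells. In wells below the line, Vim stood at 0.0582 and 0 CPM in the controls, 0 and 1.23 CPM in homozygous dim cells, 0.158 and 6.38 CPM in homozygous bright cells, and 0.206 and 1.60 CPM in M72 bright and dim cells. The value of 6.38 CPM came from 9 of 39 wells of M116, but 1 Des-high well with 158 CPM held 132 of the 184 counts, and without it the value was 1.86 CPM. Endothelial markers, of which 7 or 8 of 8 were detected in each sum, ran from 88.7 to 227 CPM, and fibroblast markers, of which 6 to 8 of 8 were detected, from 33.4 to 2537 CPM, or 309 CPM for M25 bright cells without the 3 wells. Col1a1 and Pdgfra were at 0 in M73, Pdgfra and Tcf21 in M72 dim and M25 dim cells, and Vwf in M72 dim cells. Mural markers other than Acta2, with Myh11 at 0 in all sums but that of M116 bright cells, ran from 25.5 to 133 CPM, and immune markers, with Ptprc at 0 in all sums but those of M72 bright and M116 dim cells, from 0.264 to 57.8 CPM. Their part in the Vim differences between groups was not tested, and cells with attached fragments, mixed wells and free RNA cannot be told apart here.

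Des, Lmna and Plec differed less between these wells than Vim did. With the wells without CM markers set aside, Des stood at 1181 CPM in the wells with other-cell transcripts and 1198 CPM in those without. Leaving out the 2 highest wells on each side gave 1008 and 1164 CPM, so that Des was then lower in the wells with other-cell transcripts. With all of these wells, Lmna stood at 98.9 and 83.9 CPM, and Plec at 139 and 155 CPM. Synm stood at 1.75 and 0.665 CPM, but 2 wells held 67 of its 86 counts in the wells with and 49 of its 75 counts in the wells without other-cell transcripts, and leaving out those pairs gave 0.396 and 0.234 CPM. Vim stood at 151 and 2.05 CPM in the same wells.

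**Figure D3:**
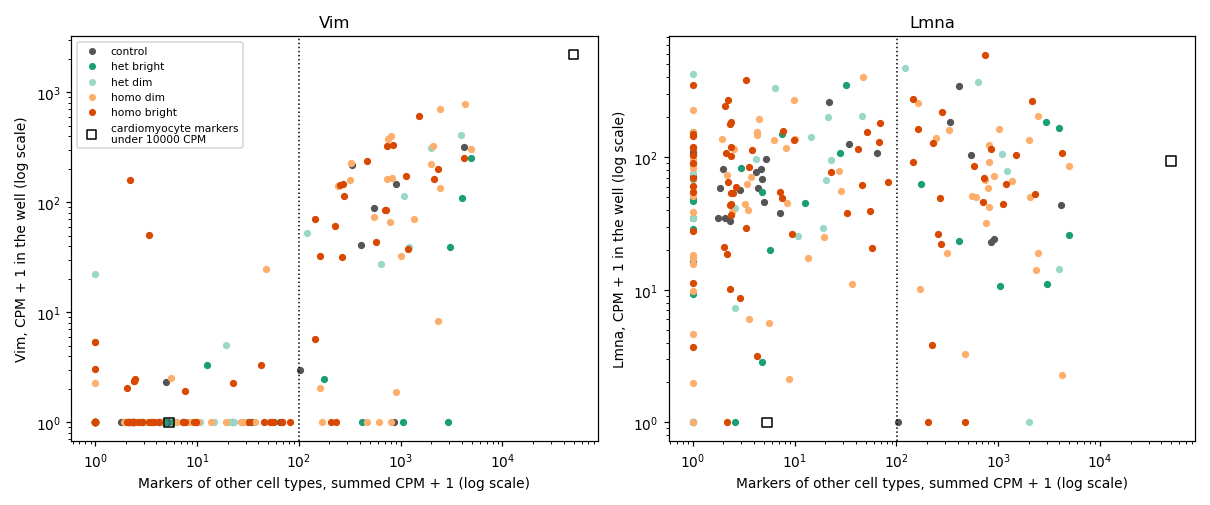
Vim and Lmna level of each well with at least 1000 genes against the summed level of fibroblast, endothelial, mural and immune markers without Acta2, both as CPM + 1 on log axes, with a dotted line at 100 CPM. Vim is at 0 in most wells left of the line and above 0 in 57 of the 67 wells right of it, while Lmna has no such step.

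Across all 5 genes, none was called against the controls. In homozygous bright cells against controls, 0 of the 4 members tested passed an adjusted p of 0.05 in edgeR or in DESeq2, where edgeR called 0.0164% of all 12203 genes (2, both features of the transgene) and DESeq2 0.869% (106). At an unadjusted p of 0.05 edgeR passed 0 members and 6.55% of all genes. For homozygous dim cells the count was 0 of 4 in both tools, where edgeR called 0% and DESeq2 0.451% of 12195 genes, and 0 at an unadjusted p of 0.05, which 6.22% of genes passed. In the bright comparison 1 member, Plec, was lower in both homozygous mice than in both controls after TMM scaling and none was higher, where 14.8% of all genes were lower and 24.3% higher in this way. In the dim comparison Des and Plec were lower and none was higher, against 14.2% and 23.8% of all genes. Exact permutation of 2 mice against 2 cannot go below p = 0.33. The 2 comparisons share the control sums. Under TMM 1 member was above 0 and 3 were below in the bright comparison, where 54.1% of all genes were above 0, and under library size 3 and 1. Scaling shifted all genes: the median log2 fold change of all genes was 0.11 under TMM and 0.41 under library size for bright cells, and 0.10 and 0.38 for dim cells. With each cell given equal weight in limma, Des, Lmna and Plec turned above 0 in both comparisons with controls, and over cells with at least 1000 genes only Lmna in the bright comparison did. Relative to that median, Des stood at -0.33 under TMM and -0.32 under library size in bright cells, and at -0.62 under both in dim cells, and Vim at 0.79 and 0.82 in bright and 0.29 and 0.34 in dim cells. Without the 3 wells that lacked CM markers, Vim in bright cells was below the median of all genes under TMM, at -0.23 against 0.096.

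**Figure D4:**
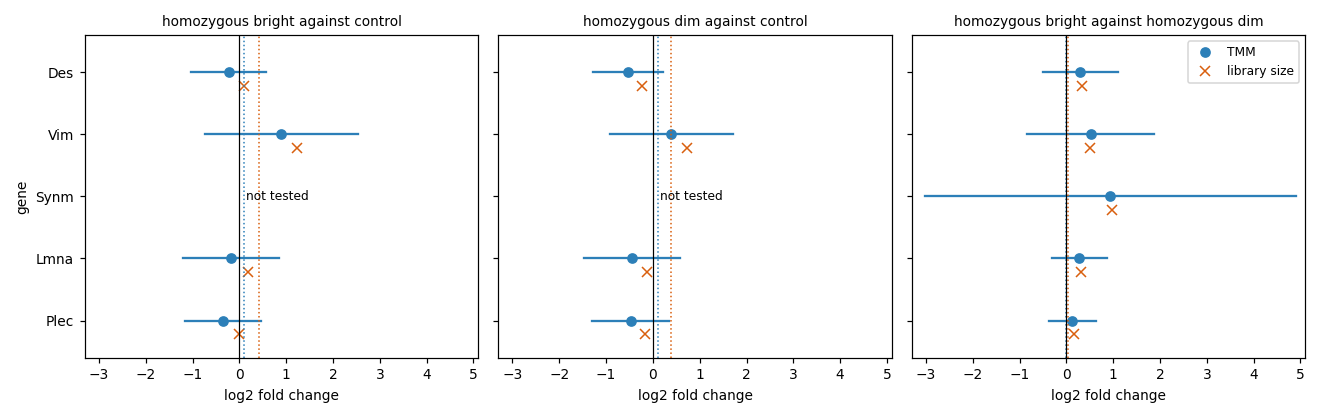
Log2 fold change of each member in the 3 comparisons from the edgeR fit with TMM scaling (points, with 95% intervals) and with library size scaling (crosses); dotted lines mark the median of all genes. Every interval includes 0, and the Vim and Synm intervals are the widest.

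Bright and dim cells of the same homozygous hearts share the animal, its age and its library set, and differ in the transgene level by 27.4-fold in M25 and 2.33-fold in M116. The main fit did not pair the sums by mouse. With the mouse as a block, an alternative, Des had an unadjusted p of 0.0513 in edgeR and no gene was called. In the main fit all 5 members had a log2 fold change above 0, where 49.5% of all 13439 genes tested did. Their median was 0.30 against -0.01 over all genes, but none passed the test. Des was 0.30 (standard error 0.32), Vim 0.52 (0.54), Synm 0.94 (1.59), Lmna 0.28 (0.24) and Plec 0.13 (0.20), each with an adjusted p of 0.999 in edgeR. The count of members called was 0 of 5 in edgeR and in DESeq2, where edgeR called 0% and DESeq2 0.662% of the genes tested, and 0 at an unadjusted p of 0.05, which 4.12% of them passed. Lmna and Plec were higher in the bright cells of both mice than in the dim cells of both, and no member was lower in this way, where 15.1% of all genes were higher and 16.0% lower. Without the 3 wells that lacked CM markers, Vim turned to -0.63, while Des was 0.36, Synm 0.95, Lmna 0.24 and Plec 0.067, and before TMM scaling the Plec level of M25 bright cells, 132 CPM, was then below both dim values. Without the 3 Des-high wells Synm turned to -1.12 and Des was 0.11.

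With all wells, each member except Vim had a higher level under the bright than under the dim label in both homozygous mice. The CPM ratio of bright to dim cells was 1.34 for Des in M25 (exact conditional interval 1.32 to 1.36) and 1.13 in M116 (1.12 to 1.15). For Lmna the ratios were 1.21 and 1.27, for Plec 1.07 and 1.16, and for Synm 1.46 (0.346 to 7.02) and 2.10 (1.39 to 3.23). Without the Des-high wells the Des ratio was 1.12 in M25 and 0.993 in M116 (0.978 to 1.01), and the Synm ratio 0.256 (0.00519 to 2.58) and 0.494 (0.266 to 0.890), so that the higher bright level of Des in M116 and of Synm in both mice rested on these wells. Without the wells that lacked CM markers the ratio in M25 was 1.44 for Des, 1.15 for Lmna, 1.57 for Synm and 0.979 for Plec (0.925 to 1.04). For Vim they were 2.75 and 0.617, or 0.731 in M25 without those wells. In M72 each ratio of cells labelled bright to cells labelled dim was below 1, at 0.922 for Des (0.901 to 0.944), 0.609 for Vim, 0.212 for Synm (0.0631 to 0.571), 0.442 for Lmna (0.406 to 0.480) and 0.714 for Plec. Its hBAG ratio was also below 1, at 0.417. These intervals cover counting error only, and there is 1 heterozygous mouse, so no test was made. Within a mouse and label, the rank correlation of Des, Vim, Lmna or Plec with hBAG across wells lay between -0.20 and 0.38 in 18 to 56 wells each, a description of wells that share a mouse and a library set.

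**Figure D5:**
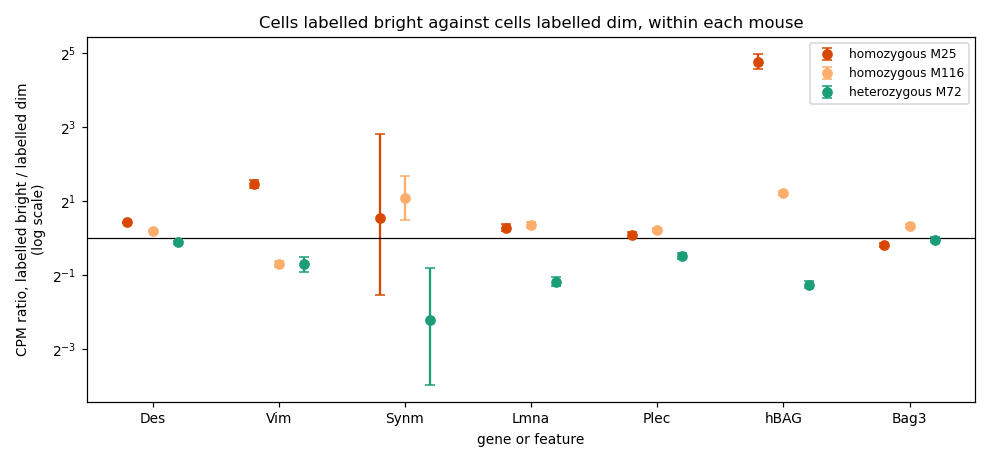
CPM ratio of cells labelled bright to cells labelled dim within mice M25, M116 and M72 (log axis) for the 5 members, Bag3 and hBAG, with exact conditional 95% intervals for counting error. With all wells included, the ratio for Des, Synm, Lmna, Plec and hBAG is above 1 in both homozygous mice and below 1 in M72; without the 3 Des-high wells it is below 1 for Des in M116 and for Synm in both homozygous mice.

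Other intermediate filament genes were sparse in these CMs. Of 11 listed, Gfap, Prph and Ina had no count in any cell, and 3 were tested in bright cells against controls (2 with a log2 fold change above and 1 below 0), 4 in dim cells against controls (3 and 1) and 4 between bright and dim cells (2 and 2), with none called in edgeR. Over all genes tested, 54.1%, 54.2% and 49.5% were above 0 in these comparisons. Krt8 in both comparisons with controls, and Sync in that of dim cells, passed the count filter only through the homozygous cells. Their place above 0 was therefore set by the filter. Krt8 and Krt18 encode the keratin pair of simple epithelia. Krt8 stood at 0 and 0.244 CPM in the controls, 2.67 and 0.958 CPM in homozygous dim cells and 1.96 and 12.3 CPM in homozygous bright cells, and its bright comparison had an unadjusted p of 0.0449 and an adjusted p of 0.742 in edgeR. With 1 count in the controls in all, no fold is given, and since the filter set its sign, this p is not read as a result. Krt18 stood at 12.8 and 29.6 CPM in bright and 7.24 and 8.62 CPM in dim cells of M25 and M116, a log2 fold change of 1.37 (standard error 0.54, unadjusted p = 0.0480, adjusted p = 0.999 in edgeR), and at 0.153 and 9.76 CPM in the controls. The Des-high wells held 58.8% of the Krt18 counts and 51.2% of the Krt8 counts of M116 bright cells, and the other wells of that sum stood at 12.7 and 6.26 CPM. The Des-high well of M25 held 37.4% and 48.6%, and the other M25 bright wells stood at 8.46 CPM of Krt18 and 1.06 CPM of Krt8, the former then below the dim value of M116. Nes, the nestin gene, had 1.99 and 28.3 CPM in the controls, 6.24 and 3.95 CPM in homozygous bright and 13.1 and 9.67 CPM in homozygous dim cells.

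The nuclear lamina and LINC complex, which couples the lamina to the cytoskeleton, had 14 of 15 listed genes tested in bright cells against controls, 10 with a fold change above and 4 below 0, with a median log2 fold change of 0.39 against 0.11 over all genes. In dim cells 8 of 13 were above 0, with a median of 0.58 against 0.10, and between bright and dim cells 6 of 14. None was called in edgeR, and none had an unadjusted p under 0.05, in any of these. Over all genes tested, 54.1%, 54.2% and 49.5% were above 0 in these comparisons. Lmnb1 and Lmnb2 in the bright comparison, and Lmnb2 in the dim one, passed the count filter only through the homozygous cells. Their place above 0 was therefore set by the filter. Banf1, which tethers chromatin to the nuclear envelope, stood at 135 and 64.2 CPM in the controls and 175 and 139 CPM in homozygous bright cells, and after TMM scaling the groups overlapped, at 142 and 76.7 against 162 and 121 normalized CPM. Syne1, which encodes nesprin-1, stood at 33.4 and 48.1 CPM in the controls, 70.5 and 66.9 CPM in bright and 84.7 and 77.9 CPM in dim homozygous cells, with adjusted p of 0.950 and 0.975 in edgeR. After TMM scaling its bright values, 65.1 and 58.1 normalized CPM, lay close above the higher control value of 57.5.

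Among the other plakins, 4 of 6 listed genes were tested in each comparison, and none was called or had an unadjusted p under 0.05 in edgeR. In bright cells against controls 1 was above and 3 were below 0, a split that turned to 3 and 1 under library size scaling, and in dim cells 2 and 2 turned to 3 and 1. Between bright and dim cells 2 were above and 2 below 0. Dsp, the desmoplakin gene that anchors desmin at the intercalated disc, stood at 388 and 413 CPM in the controls, 409 and 508 CPM in homozygous bright and 455 and 533 CPM in homozygous dim cells, and Dst at 230 and 349, 235 and 299, and 268 and 327 CPM. After TMM scaling the dim values of Dsp, 424 and 468 normalized CPM, lay within those of the controls, 411 and 480. Of the 8 anchors and partners of desmin and synemin, all tested, 2 were above and 6 below 0 in bright cells against controls (4 and 4 under library size scaling), 4 and 4 in dim cells, and 3 and 5 between bright and dim cells (4 and 4 under library size scaling), with none called and none at an unadjusted p under 0.05 in edgeR. Actn2, the Z-disc protein α-actinin-2, stood at 1947 and 1509 CPM in the controls and 2002 and 2246 CPM in homozygous bright cells, but after TMM scaling the groups overlapped, at 2047 and 1803 against 1849 and 1953 normalized CPM (log2 fold change -0.018). Cryab stood at 1473 and 864 CPM in the controls and 1184 and 927 CPM in homozygous bright cells.

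The genes whose level across wells was most like that of a member were then sought among 8800 genes, by the Pearson correlation of log2(CPM + 1) over the 219 wells with at least 1000 genes after the mean of each mouse and label was taken off. For Des they were Cryab (r = 0.75), Csrp3 (0.75), which encodes muscle LIM protein, and Fxyd1 (0.74), but these values rested on the wells that lacked CM markers. Without those wells the nearest were Cryab (0.33), Csrp3 (0.32) and Xirp2 (0.32), and without the Des-high wells too Lrrc2 (0.27). For Vim the nearest were Eng (0.78), an endothelial receptor component, Ltbp4 (0.77) and Tagln2 (0.76), and they stayed the nearest 3 without either set of wells. For Lmna they were the ribosomal protein genes Rpl35 (0.40) and Rps26 (0.40) and the initiation factor gene Eif1 (0.36), and for Plec Zfp106 (0.36), Ybx1 (0.32) and Gm43359 (0.31), while without the wells that lacked CM markers Trim63 (0.35) entered the nearest 3 of Lmna and Lars2 (0.36) led those of Plec. Synm was counted in too few wells to enter. Between members, Lmna and Plec stood at r = 0.29 and Des and Synm at 0.25, or at 0.26 and 0.35 without the wells that lacked CM markers and at 0.26 and 0.11 without the Des-high wells too, and Des and Vim stood at -0.15. These are descriptions of wells that share library sets and depth, without a test.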

How the data were processed

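The labels describe SMART-seq2 libraries of single CMs. Per the labels and the study's methods, the authors used bcl2fastq and mapped reads with STAR (2.7.0f) to a mouse reference with human BAG3 and eGFP sequences added; genome build, annotation and strand column are not given in the sources used here, so no gene positions are given. The deposited values are raw counts per gene and cell, without normalization. Of 55397 symbols, 55009 matched GENCODE M21, used for exonic lengths only.

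Counts were summed per mouse and label, since the animal is the replicate, and compared with edgeR 4.0.16 in R 4.3.3 (filterByExpr, TMM, glmQLFit, glmQLFTest, Benjamini-Hochberg over all genes tested, threshold 0.05). Control and homozygous groups hold 2 mice each, bright and dim homozygous cells come from the same 2 mice, and the heterozygous cells from 1; M25 and M26 lie in one library set and M73, M72 and M116 in the other. The methods of the study test single cells, which was not followed for p-values. Other steps used DESeq2 1.42.0, limma 3.58.1, Python 3.11.15, pandas 2.3.3 and scipy 1.17.1, and the fit was tested on simulated data.

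The genes named are the 5 members, list genes with an unadjusted p under 0.05 or otherwise the 2 with the highest mean CPM, and the 3 genes most like each member. Nes, Sync, Lmnb1, Lmnb2, Gfap, Prph, Ina, Ankrd1, Nppa, the overlapping genes, Acta2 and some markers at 0 in a sum were added after values were seen. Members and lists were chosen with earlier results of these data known. Alternatives were library size scaling, no filter, DESeq2, a fit over all 5 labels, a library set block, a replicate block, leaving out each mouse, thinning, equal weight per cell with limma and leaving out the 59 wells with most other-cell markers; after seeing the data, sums without the 3 wells lacking CM markers, sums without the 3 Des-high wells, sums of wells with under 100 CPM of other-cell markers and equal weight per cell with at least 1000 genes were added. Bright and dim cells come from the same hearts, but the main fit did not pair them by mouse, and the replicate block was an alternative. The difference between M116 and M25 in bright cells correlated with that in dim cells across 6874 genes with at least 100 counts (r = 0.18, rho = 0.22, genes are not independent). A count of 0 is taken to allow up to 3 counts, and a share of 0 up to 3 of its total.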

Additional observations from a re-analysis of the deposited data

Results flagged for a closer look

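The log2 ratio of cells labelled bright to cells labelled dim had opposite signs in the homozygous mice and in the heterozygous mouse M72 for 4 members and for the transgene. For Des it was 0.42 in M25, 0.18 in M116 and -0.12 in M72, for Lmna 0.27, 0.35 and -1.18, for Plec 0.091, 0.22 and -0.49 (-0.031 in M25 without the 3 wells lacking CM markers, which leaves 3 members with opposite signs), and for Synm, with 4 to 84 counts per sum, 0.54, 1.07 and -2.23. Without the 3 Des-high wells Des was -0.010 in M116, and Synm was -1.97 in M25 and -1.02 in M116, so that for these 2 genes the signs were then no longer opposite in both homozygous mice. For hBAG it was 4.78, 1.22 and -1.26, so that the label of M72 and its transgene level went opposite ways. The difference between the heterozygous and the homozygous mice was not tested, since there is 1 heterozygous mouse, and whether its labels were exchanged was not tested.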

How the results depend on the processing

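No member passed an adjusted p of 0.05 in any of 204 values under the alternatives run (edgeR, DESeq2 or limma with Benjamini-Hochberg adjustment; lowest adjusted p 0.189), and the count of members called was 0 in all 48; 30 values changed sign. In bright cells against controls, library size scaling gave Des 0.091 and Lmna 0.18, equal weight per cell in limma gave Des 0.44, Lmna 0.83 and Plec 0.14, the same over cells with at least 1000 genes gave Lmna 0.094, and Vim was -0.63 without the 59 wells highest in other-cell markers and -0.23 without the 3 wells lacking CM markers. In dim cells against controls, equal weight gave Des 0.59, Vim -0.10, Lmna 0.65 and Plec 0.25, and Vim was -0.21 without those 59 wells. Between bright and dim cells, equal weight gave Des -0.14 and Plec -0.11, with at least 1000 genes Des -0.092 and Plec -0.00082; Vim was -0.41 and Plec -0.15 without those 59 wells, Vim -0.63 without the 3 wells, Synm -1.12 without the 3 Des-high wells, and Plec -0.084 in wells with under 100 CPM of other-cell markers, where M73 rests on 3 wells. The values listed above are only those that changed sign. Over all alternatives Vim between bright and dim cells ran from -0.63 to 2.35, so that it also rose. Apart from the constructions named here the cause was not tested.

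Leaving out 1 mouse in turn gave, in bright cells against controls, Des -0.60 to 0.094, Vim -0.022 to 1.60 and Lmna -0.54 to 0.34. Plec ran from -0.57 (without M26) to -0.080 (without M73). In dim cells the ranges were Des -0.75 to -0.31, Plec -0.68 to -0.23, Vim -0.063 to 1.06 and Lmna -0.80 to 0.041. Between bright and dim cells only 1 sum was left out in turn, and the other label of that mouse stayed in. This gave Des -0.13 to 0.63, Vim -0.46 to 1.09, Synm -0.88 to 2.35, Lmna 0.16 to 0.43 and Plec 0.063 to 0.19. These last ranges mix the label with the difference between M25 and M116. Within a mouse the Des log2 ratio was 0.42 in M25 and 0.18 in M116, or -0.010 in M116 without the Des-high wells. In each of these fits the spread of the lone sum had to be taken from the remaining pair.

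Over all genes, the number called in bright cells against controls was 2, and 106 with DESeq2, 163 without the filter, 4 with equal weight, 5 with all 5 labels, 10 with the library set as a block and 0 (without M26) to 41 (without M116) without 1 mouse. In dim cells it was 0, and 55, 58, 1, 1, 12 and 3 to 827 (without M26), with 1 for equal weight over cells with at least 1000 genes. Between bright and dim cells it was 0, and 89 with DESeq2, 217 without the filter, 2 with equal weight and 0 to 74 (without the bright cells of M116) without 1 mouse.

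With the mouse as a replicate block, bright against dim cells gave 0 genes called (468 at an unadjusted p under 0.05 in edgeR), and Des 0.27 (unadjusted p = 0.0513, adjusted p = 1), Vim 0.35, Synm 0.79, Lmna 0.28 and Plec 0.12; no call changed. Thinning to 100000 counts covered only wells with at least that many counts, whereas the shares before it covered all wells. Of 40 shares of cells with a count, 35 then stayed within their interval. The 5 that moved were those of Des in M26, M73 and M116 dim cells, Lmna in M26 and Plec in M73. All 5 rose, which thinning alone cannot do, so they do not show an effect of depth.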
